A study of Sus scrofa with 75 samples.

Results

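MBNL1, MBNL2, RBM39, RBFOX2, RBM20, PTBP1, CELF2, ESRP1, ESRP2 and QKI are RNA-binding proteins that set which exons a tissue keeps in its mRNAs, and several have alternative exons of their own. These 10 genes were chosen by name, and 9 of them carry their name in the study's pig transcriptome annotation. No gene of that annotation is named CELF2, so it was not analysed here. The 9 genes have 294 of the 94894 transcripts measured in the series, and the series measured 35798 genes in all. Short-read RNA sequencing covered 40 libraries: 4 pigs coded BS and 4 pigs coded DSE, each with heart, kidney, liver, lung and spleen. Each code, from BS1 to DSE4, was read as 1 animal. All animals were adult males 12 months old, and the labels do not spell out what the codes BS and DSE stand for. PacBio long-read sequencing of full-length cDNA covered the same organs with 1 library for each pig group and organ, 10 in all. Libraries of a further pig group are not analysed here. RNA came from whole organs, so each value is an average over the cell types of that organ.

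Splicing regulators bind short motifs in and beside exons, and the position of binding decides whether an exon is kept or skipped. RBM20 works in heart muscle, where it is best known for the splicing of titin. RBFOX2, MBNL1 and MBNL2 switch many transcripts between fetal and adult or muscle and non-muscle forms, ESRP1 and ESRP2 keep epithelial exon choices, and PTBP1 represses exons used in neurons and muscle. RBM39 is a widely expressed protein related to SR splicing factors, and QKI binds a motif in introns and 3′ ends and is known for muscle and glial splicing. Several of these proteins also regulate exons of their own genes.

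All positions are on the pig build susScr11. MBNL1 (ENSSSCG00000011720) lies on chr13:92491808-92696235 on the plus strand and has 107 transcripts, 98 of them built from PacBio reads. MBNL2 (ENSSSCG00000009505) lies on chr11:66481923-66641653 on the plus strand with 32 transcripts, 24 of them from PacBio. RBFOX2 (ENSSSCG00000000152) lies on chr5:11633541-11903094 on the plus strand and has 9 transcripts, of which only 1 came from PacBio. RBM20 (ENSSSCG00000010626) lies on chr14:121191927-121269823 on the plus strand with 3 transcripts. ESRP1 (ENSSSCG00000006099) lies on chr4:41993946-42061236 on the minus strand with 11 transcripts, and ESRP2 (ENSSSCG00000035227) on chr6:28802650-28812982 on the minus strand with 4. PTBP1 (ENSSSCG00000013421) lies on chr2:77551562-77579036 on the minus strand with 32 transcripts. RBM39 (ENSSSCG00000007309) lies on chr17:39031955-39064693 on the minus strand with 85 transcripts, 80 from PacBio. QKI (ENSSSCG00000004029) lies on chr1:4735467-4883757 on the minus strand with 11 transcripts, 9 from PacBio. MBNL2, RBM39, RBFOX2, RBM20, PTBP1 and ESRP2 each overlap another annotated gene. Whether strand was used in the counting is not given in the sources used here, so reads of these overlapping genes may be shared.

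Gene levels are in TPM, a length-corrected share of a library's transcripts in which all genes sum to 1000000. The number of short reads behind each value is therefore unknown. The PacBio libraries hold 119623 to 456783 full-length reads. Markers of the labelled organ (heart muscle, kidney tubule, hepatocyte, lung epithelium and spleen B cells) were highest in that organ in every list. The liver of pig BS4 held 361.6 TPM of 8 heart-muscle genes, against a liver median of 23.3 TPM. Genes of the mitochondrial genome took a median of 37.2% of TPM in heart, against 7.04% in spleen, 7.46% in lung, 10.3% in liver and 22.9% in kidney. The median over all 16905 tested genes was itself 1.03 higher in lung than in heart and 1.08 higher in lung than in liver (log2). Each organ difference below carries that shift, and a second scaling, on the median ratio of genes present in every library, removes most of it.

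Organ differences were called at a limma adjusted p under 0.05, with Benjamini-Hochberg adjustment over all genes and organ pairs, and at least 2-fold on log2(TPM + 1). Across the 9 genes and 10 organ pairs, 50 of 90 differences passed, where 43.0% of all tested gene and pair combinations did. After median-ratio scaling 35 of these 50 still passed, 15 no longer did and 4 others passed. The direction turned round in 12 of the 90, of which 1 was called under 1 or both scalings. RBM20 in heart and ESRP1 in lung stood at least 2-fold above each other organ. That is 2 of 9 genes, where 25.3% of all genes had such an organ, 3.32% of all genes in heart and 7.47% in lung. In full-length reads, 23 of 70 differences of the 7 genes with enough reads passed (edgeR quasi-likelihood), where 33.8% of all did. In whole organs, fewer cells of a type and less RNA per cell cannot be told apart.

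**Figure D1:**
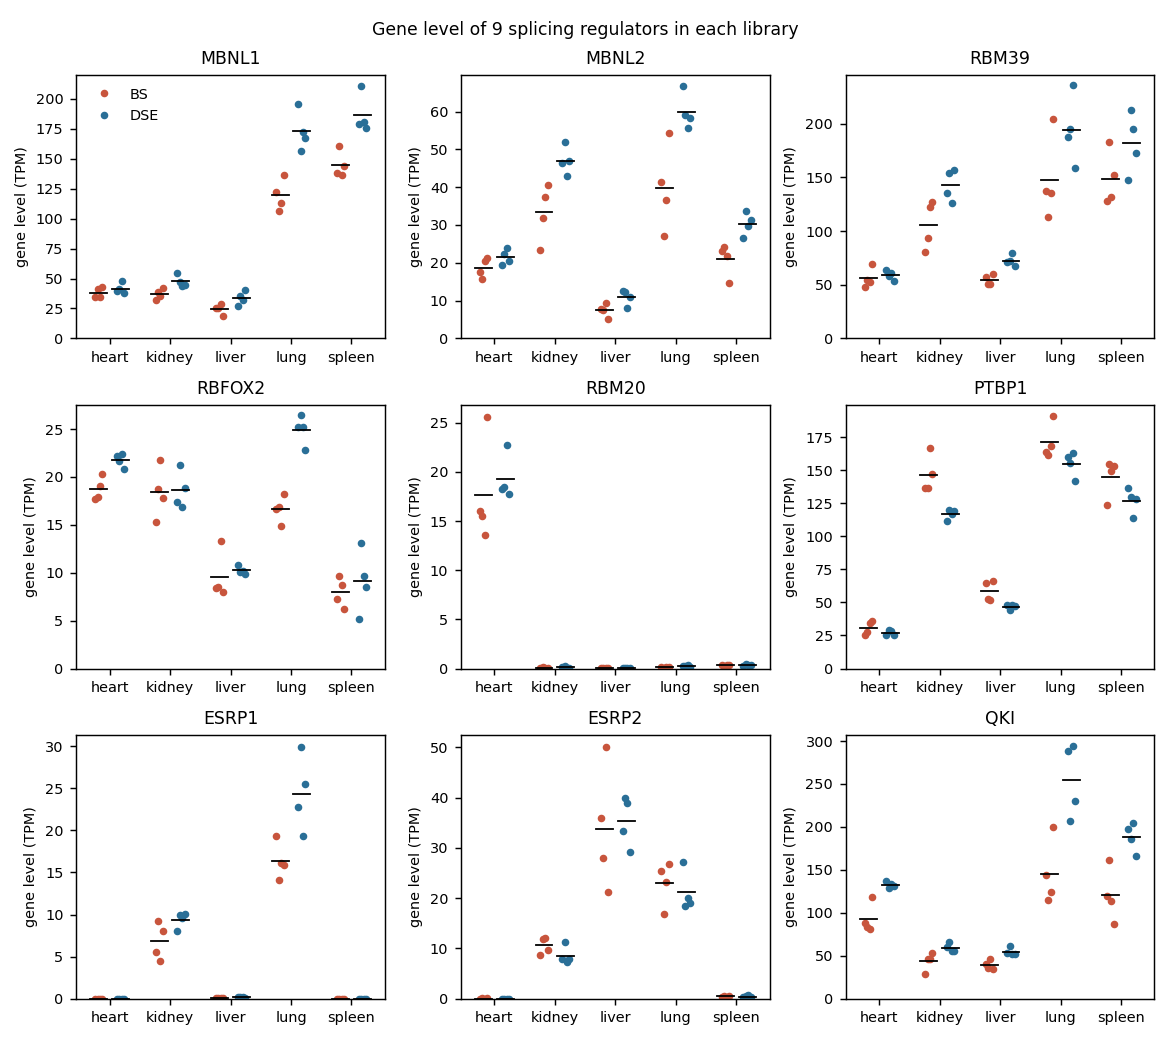
Gene level in TPM (vertical axes, linear, from 0) for the 9 splicing regulators in each of the 40 short-read libraries, by organ; red points on the left are BS pigs, blue points on the right DSE pigs, and black lines are group means (n = 4 each). RBM20 points lie above 13 TPM in heart and at or below 0.503 TPM elsewhere, and ESRP1 and ESRP2 points are near 0 in heart and spleen.

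RBM20 was a heart gene. Its level in the 8 hearts had a lowest value of 13.6, a median of 18 and a highest value of 25.6 TPM. The other organs averaged 0.372 ± 0.0675 TPM in spleen, 0.199 ± 0.0845 TPM in lung, 0.106 ± 0.0641 TPM in kidney and 0.0419 ± 0.0273 TPM in liver (SD, n = 8 each). No library outside heart exceeded 0.503 TPM, so heart did not overlap any other organ. Heart exceeded spleen, the next organ, by 3.81 ± 0.08 on the log2(TPM + 1) scale (limma adjusted p = 1.46e-30), a scale that understates differences of low genes. RBM20 had 34 full-length reads in the heart library of BS and 11 in that of DSE, and none in the 8 libraries of other organs. Per 1000000 full-length reads, the hearts held 92.1 in BS and 49.0 in DSE. A count of 0 allows up to 6.57 in the deepest of the other libraries and 25.1 in the shallowest.

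RBM20 transcripts in heart were a pair of PacBio models. PB.17867.1 (6599 nt) made up 66.7 ± 5.01% of RBM20 TPM and PB.17867.2 (6230 nt) 32.4 ± 4.76% (SD, n = 8), with 44 full-length reads for PB.17867.1 and 1 for PB.17867.2. Both carry an annotated coding region of 1149 nt. The Ensembl transcript ENSSSCT00000025671, with a coding region of 2982 nt, took 0.953% of RBM20 TPM in heart. The genes whose levels followed RBM20 most closely over the 40 libraries were MYLK3, MYPN and FSD2 (Pearson r = 0.996, 0.995 and 0.995, as a description over libraries of 5 organs). MYLK3 is a heart myosin light chain kinase and MYPN a sarcomere protein.

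RBFOX2, a regulator that binds GCAUG-type motifs, was expressed in all 5 organs. It averaged 20.8 ± 4.64 TPM in lung, 20.2 ± 1.86 in heart, 18.5 ± 2.15 in kidney, 9.91 ± 1.70 in liver and 8.54 ± 2.44 in spleen (SD, n = 8 each). Lung and heart overlapped and differed by 0.01 on the log2 scale (limma adjusted p = 0.943). After median-ratio scaling the order of that pair turned round, with heart 1.14 above lung (adjusted p = 1.68e-12), so the place of heart in this order depends on the scaling. LMO7, itself a gene with heart exons described below, followed RBFOX2 most closely over the libraries (r = 0.929), ahead of UACA (0.920) and PPFIBP1 (0.912).

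The transcripts of RBFOX2 split heart from every other organ. RBFOX genes carry a pair of alternative exons behind the RNA-binding domain, and the muscle form of the protein uses a different member of the pair than other tissues. In the annotation these are a 43-nt exon at chr5:11890802-11890844 and a 40-nt exon at chr5:11887743-11887782. Of the 9 RBFOX2 transcripts, 4 hold the 43-nt exon, 4 hold the 40-nt exon, 1 holds neither, and 0 hold both. Neither length is a multiple of 3, and both leave the same remainder, so exchanging one for the other keeps the reading frame.

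Inclusion of the 43-nt exon, as the share of RBFOX2 TPM from transcripts that hold it among those spanning it, was 56.6, 51.8, 36.2 and 54.3% in the BS hearts and 52.8, 57.8, 62.8 and 60.3% in the DSE hearts. The other organs averaged 4.11 ± 1.49% in lung, 3.91 ± 4.17% in spleen, 3.68 ± 1.55% in kidney and 3.27 ± 1.36% in liver (SD, n = 8 each). The highest value outside heart was 13.7% in a spleen, so heart overlapped no other organ. Heart was 50.8 percentage points above liver, or 3.85 ± 0.20 on the log2 ratio of including to skipping transcripts (limma adjusted p = 1.09e-17). Heart was also 50.4 points above kidney (adjusted p = 8.91e-19), and passed against lung and spleen.

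The 40-nt exon ran the other way. Its inclusion averaged 87.2 ± 5.92% in spleen, 84.7 ± 3.88% in liver, 83.6 ± 3.57% in lung, 82.5 ± 5.58% in kidney and 37.3 ± 7.16% in heart (SD, n = 8 each). Spleen was 50.0 points above heart (3.06 ± 0.19 on the log2 ratio, limma adjusted p = 2.29e-15), and the other 3 organs were above heart by 45.2 to 47.4 points. Both exons are shares of the same transcripts, so they are not independent measurements. The transcript holding neither exon took 8.66% of RBFOX2 TPM in heart and up to 13.8% in kidney.

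At the transcript level the 43-nt exon came mainly from ENSSSCT00000044408. It made up 29.4% of RBFOX2 TPM in heart and 0.882 to 2.25% in the other organs. ENSSSCT00000045134 made up 42.7 to 49.7% in the other organs and 21.3% in heart, and ENSSSCT00000053162 made up 32.6 to 43.4% and 11.7%. Long reads say almost nothing about RBFOX2, with 1 full-length read in DSE heart and 1 in DSE lung. The heart read held the 43-nt exon and not the 40-nt exon.

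MBNL1 and MBNL2 are muscleblind proteins, zinc-finger splicing regulators whose sequestration by repeat RNA underlies myotonic dystrophy. MBNL1 averaged 166 ± 25.7 TPM in spleen, 146 ± 31.7 in lung, 42.3 ± 7.15 in kidney, 39.8 ± 4.55 in heart and 29.2 ± 6.61 in liver (SD, n = 8 each). Spleen libraries ran from 137 to 211 TPM and lung libraries from 106 to 195 TPM, so these overlapped. Lung exceeded kidney by 1.75 ± 0.09 (log2, limma adjusted p = 1.42e-19), with the lowest lung at 106 TPM and the highest kidney at 54.7 TPM. Kidney and heart differed by 0.07 (adjusted p = 0.439). Heart minus lung was −1.83 as deposited and −0.64 after median-ratio scaling, which also made kidney the lowest organ in place of liver. A sum of 10 leukocyte marker genes moved with these levels, at a median of 3252 TPM in spleen and 2155 TPM in lung against 170 or less in the other organs, and its part in the MBNL1 level was not tested.

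MBNL2 had another order. It averaged 49.9 ± 13.4 TPM in lung, 40.2 ± 9.14 in kidney, 25.7 ± 6.09 in spleen, 20.1 ± 2.60 in heart and 9.17 ± 2.53 in liver (SD, n = 8 each). The 8 livers had 5.23 to 12.5 TPM with a median of 8.67, below all 8 hearts at 15.7 to 23.9 TPM with a median of 20.5. Heart was 1.09 ± 0.12 above liver (log2, limma adjusted p = 7.78e-10). Lung and kidney overlapped, and their difference of 0.29 was under the 2-fold minimum. Heart minus lung was −1.23 as deposited and −0.06 after median-ratio scaling, so that call rests on the scaling, and heart then also lay above spleen. Over the 40 libraries MBNL1 was followed most closely by PTPN12 (r = 0.983), HECA (0.975) and WDHD1 (0.974), and MBNL2 by ABI2 (0.966), PLXDC2 (0.965) and MNAT1 (0.965).

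Full-length reads placed the muscleblind genes in heart higher than short reads did. Per 1000000 full-length reads, MBNL2 had 919 in the BS heart library and 731 in the DSE one, against 339 in the BS kidney library and 238 in the DSE one. Heart was 1.59 above kidney (log2, edgeR quasi-likelihood, Benjamini-Hochberg adjusted p = 0.000339), while in short reads kidney was 0.94 above heart. MBNL1 had 902 in BS heart and 602 in the DSE one, against 232 in BS kidney and 59.5 in the DSE one, a difference of 2.44 (adjusted p = 6.84e-08), while in short reads kidney and heart differed by 0.07, which did not pass. The short-read order itself depended on the scaling. After median-ratio scaling, MBNL1 in heart was 0.82 above kidney (limma adjusted p = 1.36e-11), still under 2-fold, and MBNL2 heart minus kidney was −0.05 (0.654). The cause of the difference between the kinds of read was not tested.

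A single 3-exon MBNL1 transcript limits what short reads say about MBNL1 exons. PB.15800.94 (3666 nt, no annotated coding region) had 1 full-length read in all, yet took 34.6 ± 21.0% of MBNL1 TPM in lung, 33.4 ± 18.2% in kidney, 32.1 ± 13.8% in liver, 22.2 ± 12.8% in spleen and 20.2 ± 11.7% in heart (SD, n = 8 each). Its share ran from 0% in the heart of pig BS4 to 73.1% in the lung of pig BS2. It skips most internal exons, so MBNL1 organ levels of inclusion are also given without it, a choice made after seeing the data. The coding transcript with the highest usage, PB.15800.74 (5613 nt, 100 full-length reads), took 14.8 ± 4.28% in spleen and 1.5 ± 2.83% in kidney. Of the 107 MBNL1 transcripts, 36 were at 0 in every library and 11 reached 5% of the gene in any organ.

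MBNL1 carries a 36-nt exon at chr13:92686302-92686337, held by 50 transcripts, that in human and mouse MBNL1 lies in the region for self-association. It was kept most in spleen. Spleen inclusion was 58.0, 69.5, 70.1 and 67.3% in BS pigs and 54.7, 44.9, 49.5 and 45.9% in DSE pigs. The other organs averaged 32.1 ± 12.7% in lung, 20.2 ± 7.71% in liver, 19.0 ± 5.60% in heart and 15.5 ± 4.73% in kidney (SD, n = 8 each). The lowest spleen, at 44.9%, was above the highest lung, at 44.1%, so spleen overlapped no other organ. Spleen exceeded kidney by 42.0 points (2.86 ± 0.27 on the log2 ratio, limma adjusted p = 6.96e-11) and lung by 25.4 points (adjusted p = 5.11e-06).

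Full-length reads gave the same order at the top. The 36-nt exon was in 200 of 240 spleen reads (83.3%, exact 95% interval 78 to 87.8), 144 of 246 lung reads (58.5%, 52.1 to 64.8), 24 of 68 kidney reads (35.3%, 24.1 to 47.8), 115 of 382 heart reads (30.1%, 25.5 to 35.0) and 11 of 47 liver reads (23.4%, 12.3 to 38.0). These intervals cover counting error only. Only reads of transcript models kept in the annotation were counted, here and for the other exons, and reads assigned to a gene by locus were left out. In BS kidney, 61 of 106 MBNL1 full-length reads were counted. Without the 3-exon transcript the short-read means became 73.8% in spleen, 47.6% in lung, 29.3% in liver, 23.7% in heart and 23.6% in kidney. Every organ mean moved up, and spleen stayed 50.2 points above kidney.

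A 1002-nt MBNL1 exon at chr13:92547506-92548507 was kept most in heart. It averaged 58.0 ± 9.12% in heart, 41.3 ± 11.1% in liver, 37.5 ± 13.9% in kidney, 34.8 ± 4.89% in spleen and 30.5 ± 13.7% in lung (SD, n = 8 each). The 8 hearts ran from 44.4 to 73.7% and overlapped liver and kidney. They did not overlap lung, which reached 42.6%, or spleen, which reached 43.4%. Heart was 27.5 points above lung (1.81 ± 0.36 on the log2 ratio, limma adjusted p = 6.92e-05), 23.2 above spleen (0.00174) and 20.6 above kidney (0.00376). Full-length reads held it in 311 of 374 heart reads (83.2%, exact 95% interval 79.0 to 86.8), 30 of 46 liver reads (65.2%), 141 of 244 lung reads (57.8%), 132 of 239 spleen reads (55.2%) and 35 of 67 kidney reads (52.2%). Without the 3-exon transcript, heart stood at 78.8%, liver at 66.0%, kidney at 59.4%, lung at 48.0% and spleen at 46.0%. Heart was then 19.4 points above kidney, under the 20-point minimum, so the call against kidney was lost.

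MBNL2 has a 54-nt exon at chr11:66604398-66604451, held by 8 transcripts, whose counterpart in human and mouse carries nuclear localisation. It was a kidney and liver exon. Kidney inclusion was 29.9, 24.6, 36.7 and 33.2% in BS pigs and 27.7, 31.4, 30.4 and 24.2% in DSE pigs. Liver averaged 17.8 ± 6.06%, lung 3.39 ± 2.71%, heart 1.15 ± 1.03% and spleen 1.12 ± 0.837% (SD, n = 8 each). Every kidney was above every lung, heart and spleen, while the highest livers, at 26.3%, reached into the kidney range. Kidney exceeded spleen by 28.6 points (3.80 ± 0.27 on the log2 ratio, limma adjusted p = 3.39e-14), heart by 28.6 and lung by 26.4. Liver exceeded heart by 16.7 points (adjusted p = 2.93e-11), under the 20-point minimum.

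Long reads showed the same exon at lower shares. It was in 29 of 194 kidney reads (14.9%, exact 95% interval 10.2 to 20.8), 3 of 50 liver reads (6.0%), 3 of 306 lung reads (0.980%), 3 of 500 heart reads (0.600%) and 0 of 129 spleen reads, which allows up to 2.82%. The kidney interval lies below the short-read kidney mean of 29.8%. The cause of that gap was not tested.

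MBNL1 has its own 54-nt exon, at chr13:92676882-92676935, and was looked at because of its MBNL2 counterpart, after its values were seen. It averaged 21.7% in kidney, 17.5% in liver, 9.21% in lung, 6.60% in heart and 6.24% in spleen. Without the 3-exon transcript these were 31.4% in kidney, 25.4% in liver, 14.2% in lung, 8.12% in heart and 8.01% in spleen. Full-length reads gave 29.4% in kidney, 12.8% in liver, 8.54% in lung, 6.67% in spleen and 6.54% in heart. In both genes, then, the highest mean was in kidney and the next in liver. A 95-nt MBNL2 exon at chr11:66614184-66614278, chosen after its values were seen as well, averaged 36.7% in kidney, 24.6% in lung, 23.6% in liver, 18.3% in spleen and 17.7% in heart, and was in 65 of 194 kidney reads (33.5%). Its 95-nt counterpart in MBNL1, at chr13:92687026-92687120, ran from 54.2% in lung to 71.9% in spleen in short reads, and from 79.6% in heart to 97.9% in spleen in full-length reads. Without the 3-exon transcript the short-read mean of spleen was 92.9%, that of kidney 90.4%, of liver 84.3%, of lung 82.5% and of heart 77.9%, so the lowest organ was then heart, as in the full-length reads.

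**Figure D2:**
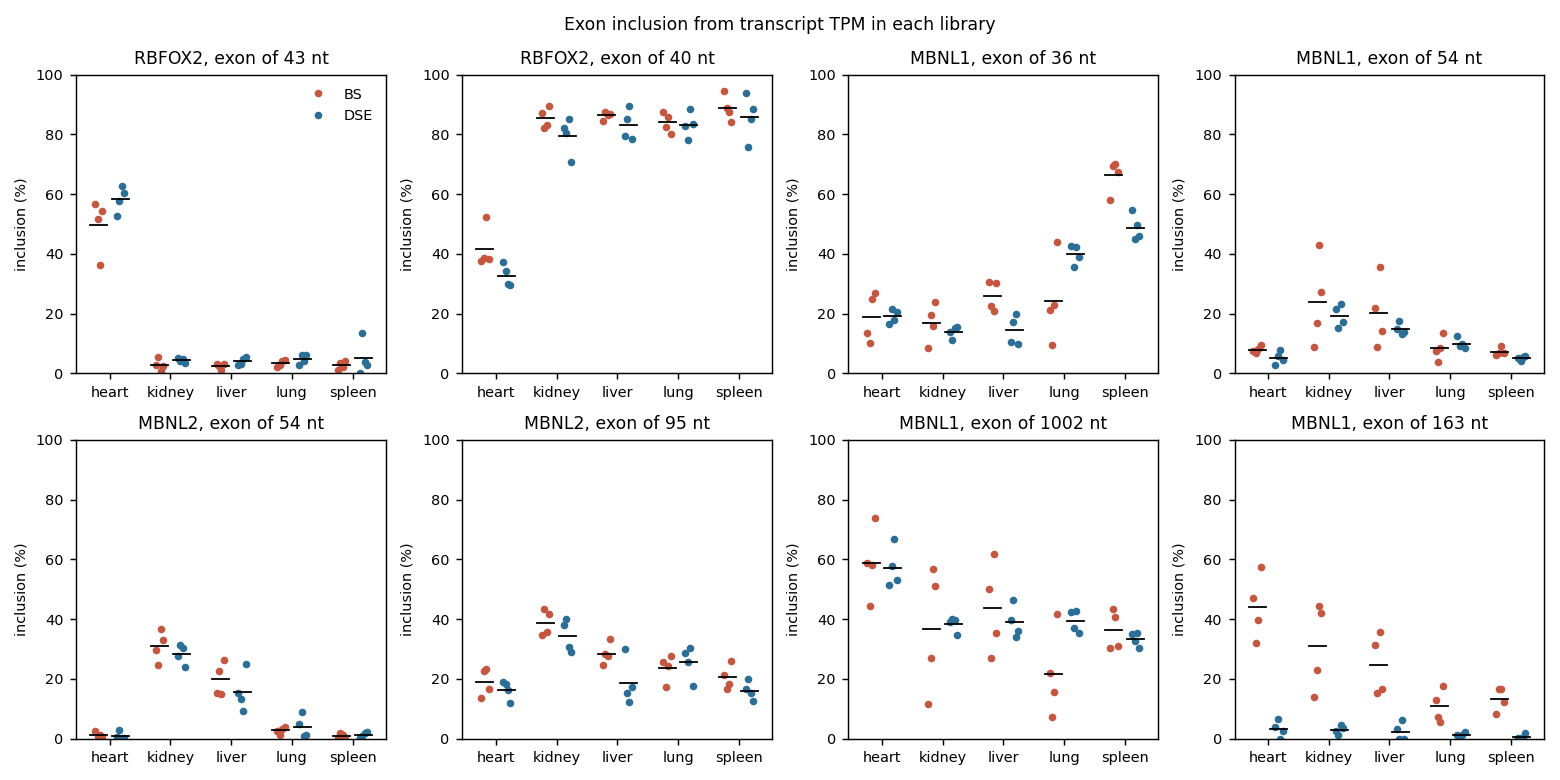
Exon inclusion in percent (vertical axes) in each short-read library by organ for 8 exons: RBFOX2 43 nt and 40 nt, MBNL1 36 nt and 54 nt, MBNL2 54 nt and 95 nt, and MBNL1 1002 nt and 163 nt; red points on the left are BS, blue points on the right DSE, and black lines are group means (n = 4 each). The RBFOX2 pair is reversed in heart, the MBNL1 36-nt exon peaks in spleen, the MBNL2 54-nt exon in kidney, and the MBNL1 163-nt exon separates BS from DSE in every organ.

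**Figure D3:**
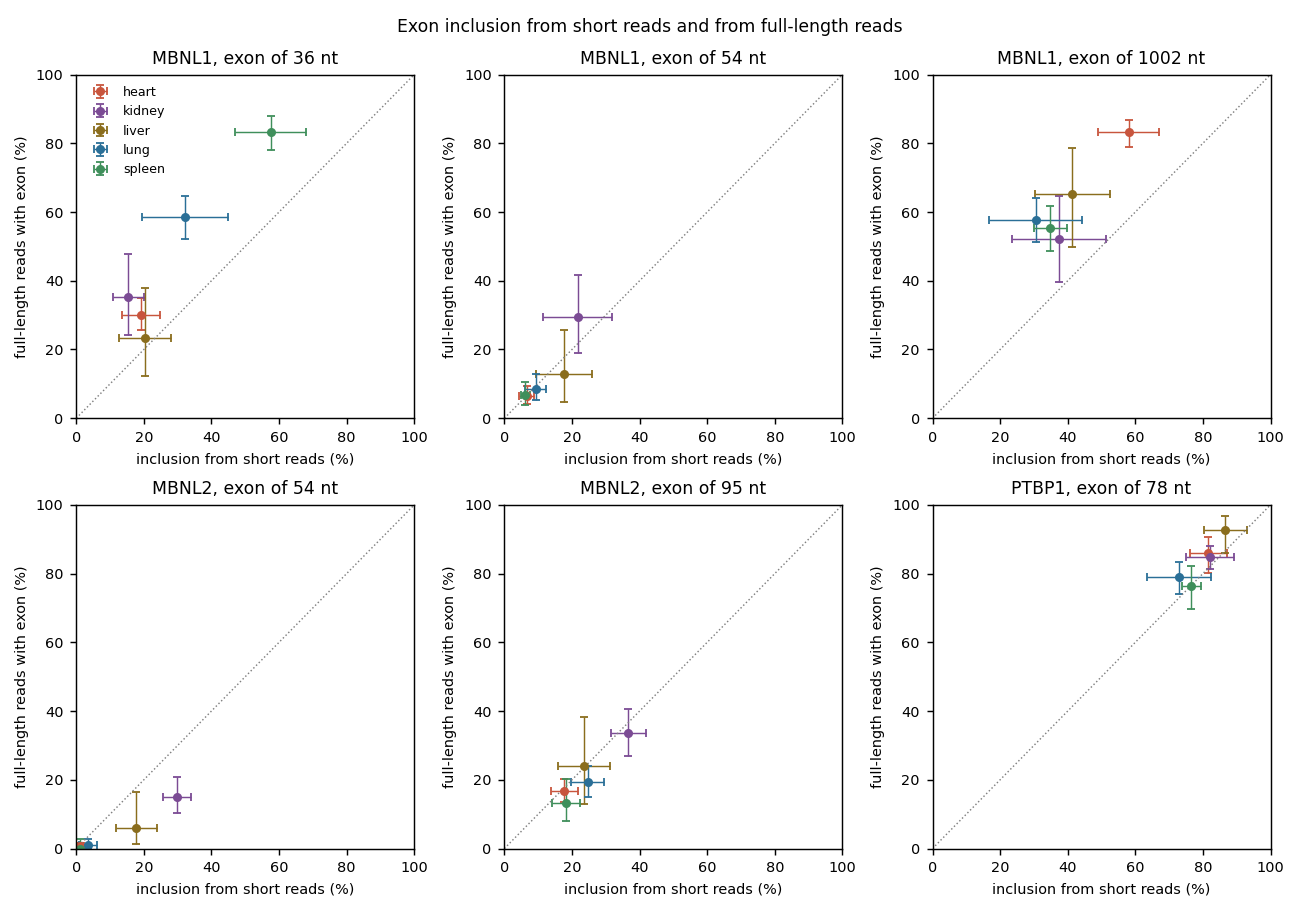
Short-read inclusion in percent (horizontal axes, mean ± SD, n = 8) against the percent of full-length reads with the exon (vertical axes, exact 95% interval, BS and DSE reads together) for 6 exons, one point per organ; the dotted line marks equality. The MBNL1 36-nt and 1002-nt points lie above the line, MBNL2 54-nt kidney lies below it at 29.8% against 14.9%, and PTBP1 points lie near it.

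The most used MBNL2 transcript, PB.13772.4 (4557 nt, 716 full-length reads), made up 61.8 ± 8.38% of MBNL2 TPM in spleen and 34.1 ± 14.8% in kidney (SD, n = 8 each), a difference of 27.7 points (limma adjusted p = 0.0230). It was at 0 in the kidney of pig BS1 and the lung of pig BS2, so its spread was wide. Over all transcripts of the 9 genes reaching 5% usage, 28 of 343 organ tests passed the threshold with at least a 20-point shift, where 5.12% of all tests in the series did. For exons it was 18 of 655, where 2.69% of all tests did. The 18 exon calls lie in RBFOX2, MBNL1 and MBNL2.

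ESRP1 and ESRP2 are the epithelial splicing regulators, and they differed in where they were high. ESRP1 averaged 20.4 ± 5.36 TPM in lung and 8.11 ± 2.09 TPM in kidney (SD, n = 8 each). It averaged 0.142 ± 0.0593 TPM in liver and 0.00692 TPM in spleen, and was listed at 0 in all 8 hearts. Lung libraries ran from 14.1 to 29.8 TPM with a median of 19.3, above all kidneys at 4.45 to 10.04 TPM with a median of 8.66. Lung exceeded kidney by 1.23 ± 0.09 (log2, limma adjusted p = 2.06e-14). That difference fell just under 2-fold, to 0.94, after median-ratio scaling. Kidney exceeded liver by 2.96 (adjusted p = 3.11e-25).

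ESRP2 was instead highest in liver. It averaged 34.5 ± 8.77 TPM in liver, 22.1 ± 4.05 in lung, 9.60 ± 1.93 in kidney, 0.442 ± 0.148 in spleen and 0.0386 ± 0.0285 in heart (SD, n = 8 each). Livers ran from 21.2 to 49.9 TPM and overlapped lungs at 16.9 to 27.2 TPM. Liver was 0.60 ± 0.12 above lung as deposited, under the 2-fold minimum, and 1.78 above lung after median-ratio scaling. Lung was 1.13 above kidney (adjusted p = 2.90e-10), under 2-fold after that scaling, and kidney 2.86 above spleen (adjusted p = 4.10e-21). In liver, ESRP2 stood at 34.5 TPM beside an ESRP1 of 0.142 TPM. In lung the pair averaged 22.1 and 20.4 TPM.

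A sum of 12 general epithelial markers had a median of 1236 TPM in lung, 819 in kidney, 487 in liver, 65.4 in spleen and 18.3 in heart. Its order differs from that of ESRP2, and its part in either gene's level was not tested. The genes closest to ESRP1 over the libraries were TMEM116 (r = 0.993), GRHL2, an epithelial transcription factor that is also in the epithelial marker list (0.992), and CDKL2 (0.984). Those closest to ESRP2 were SULT1E1 (0.984), the keratin gene KRT18 (0.977) and the complement gene C5 (0.968).

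Full-length reads of the ESRP genes were few. ESRP1 had 17 reads in BS lung, 21 in DSE lung, 14 in BS kidney and 4 in DSE kidney, and none in heart, liver or spleen. ESRP2 had 17 in BS liver and 3 in DSE liver, 8 in BS lung and 5 in DSE lung, 10 in BS kidney and 0 in DSE kidney. The lung minus kidney difference of ESRP1 was 1.32 in these reads (log2) and did not pass (edgeR quasi-likelihood, adjusted p = 0.124).

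The shares of the ESRP2 transcripts also differed in liver, where a pair of them were about level. ENSSSCT00000039065 (3133 nt) made up 48.3 ± 4.89% of ESRP2 TPM in liver, 18.8 ± 5.03% in lung and 15.9 ± 9.57% in kidney. Liver was 32.3 points above kidney (2.13 ± 0.25 on the log2 ratio, limma adjusted p = 2.00e-08) and 29.5 above lung. PB.7886.1 (6946 nt, 14 full-length reads) made up nearly all the rest, at 83.7 ± 9.50% in kidney, 80.8 ± 5.19% in lung and 48.4 ± 8.72% in liver (SD, n = 8 each). ESRP2 overlaps NFATC3, so reads at its ends may be shared. The most used ESRP1 transcript, PB.5518.13 (3964 nt), made up 39.1 ± 5.83% in lung and 28.3 ± 16.9% in kidney, and no ESRP1 transcript passed between these organs.

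PTBP1, the polypyrimidine tract binding protein, was lowest in heart in short reads, as deposited and after median-ratio scaling. It averaged 163 ± 13.8 TPM in lung, 136 ± 14.9 in spleen, 132 ± 18.6 in kidney, 52.8 ± 8.20 in liver and 29.0 ± 4.15 in heart (SD, n = 8 each). Hearts ran from 25.5 to 36.3 TPM with a median of 27.8, below all livers at 44.1 to 66.0 TPM with a median of 50.0. Heart minus liver was −0.84 as deposited, −0.87 after median-ratio scaling and −0.30 with mitochondrial genes removed (log2), each under the 2-fold minimum. Livers in turn lay below all kidneys, at 112 to 167 TPM. Lung exceeded heart by 2.46 (log2, limma adjusted p = 2.29e-26) and kidney exceeded liver by 1.30 ± 0.07 (adjusted p = 2.19e-18). The kidney and liver difference shrank to 0.38 after median-ratio scaling. Spleen and kidney differed by 0.05 (adjusted p = 0.528). Full-length reads had kidney 1.09 above heart (edgeR quasi-likelihood, adjusted p = 0.0211), with 928 reads per 1000000 in the BS kidney library and 648 in the DSE one, against 247 in BS heart and 446 in the DSE one. In these reads liver had 297 in BS and 130 in DSE, and liver and heart differed by 0.06 (log2, edgeR adjusted p = 0.952), so no lowest organ was called.

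PTBP1 has a 78-nt exon at chr2:77556059-77556136, whose skipping in mammals gives a form with altered repressor activity, and a 34-nt exon at chr2:77554214-77554247, whose skipping in human cells leads to mRNA decay. Both were chosen after values were seen and are given without a test. The 78-nt exon averaged 86.6% in liver, 82.2% in kidney, 81.5% in heart, 76.5% in spleen and 73% in lung. It was in 100 of 108 liver full-length reads (92.6%), 160 of 186 heart reads (86.0%), 416 of 490 kidney reads (84.9%), 244 of 309 lung reads (79.0%) and 146 of 191 spleen reads (76.4%). The 34-nt exon was at 96.2% in liver, 93.3% in kidney, 92.5% in spleen, 88.8% in lung and 85.5% in heart, and at 91.1% of heart full-length reads. No PTBP1 exon or transcript passed the organ test. The most used transcript, PB.3204.1 (3182 nt, 773 full-length reads), took from 28.9 ± 14.2% in lung to 45.0 ± 15.3% in liver. PB.3204.26 (2984 nt, 84 full-length reads) took from 2.58 ± 3.04% in liver to 17.2 ± 6.37% in spleen. PRPF19, a core spliceosome protein, followed PTBP1 most closely over the libraries (r = 0.986), ahead of SLBP (0.979) and OTUD5 (0.977).

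RBM39 differences of at least 2-fold depended on the scaling. It averaged 171 ± 41.8 TPM in lung, 165 ± 30.6 in spleen, 125 ± 26.5 in kidney, 63.6 ± 10.6 in liver and 57.6 ± 6.93 in heart (SD, n = 8 each). As deposited, 5 organ pairs passed, each with heart or liver as the lower organ. None of these 5 passed after median-ratio scaling, where heart minus spleen was −0.47 (limma adjusted p = 3.16e-06) and heart minus lung −0.33 (0.000435), both under 2-fold. With mitochondrial genes removed, liver remained below lung (liver minus lung −1.36) and spleen (−1.32), and kidney was 1.17 above liver. No RBM39 difference passed in full-length reads. Lung and spleen differed by 0.03 (limma adjusted p = 0.832). UHRF2 (r = 0.984) and a pair of splicing genes, SON (0.983) and PRPF4B (0.983), followed it most closely.

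The RBM39 locus has 85 transcripts, of which 28 were at 0 in every library and 7 reached 5% usage in any organ. PB.19848.55 (2704 nt) made up 28.0 ± 8.67% in lung and 17.1 ± 4.05% in kidney, and PB.19848.43 (2756 nt) 28.6 ± 6.90% in liver and 18.2 ± 3.05% in lung (SD, n = 8 each). No RBM39 transcript or exon passed between organs. A 73-nt exon at chr17:39063339-39063411, in 17 transcripts with the annotated coding region covering it in none, was picked after its values were seen. It was kept at 19.8% in liver, 19.2% in heart, 18.9% in spleen, 14.4% in lung and 12.1% in kidney, and in 7.34% of kidney to 13.9% of heart full-length reads.

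QKI is a STAR-family protein whose transcripts end in different last coding exons. It averaged 200 ± 69.4 TPM in lung, 154 ± 43.2 in spleen, 113 ± 24.5 in heart, 51.6 ± 11.4 in kidney and 47.0 ± 9.31 in liver (SD, n = 8 each). All 8 hearts, at 81.1 to 138 TPM, lay above all kidneys, at 28.9 to 66.6 TPM. Heart exceeded kidney by 1.12 ± 0.12 (log2, limma adjusted p = 1.94e-10). Heart was 0.77 below lung as deposited and 0.42 above lung after median-ratio scaling, and it likewise moved above spleen. With mitochondrial genes removed, heart minus lung was −0.19 and heart minus spleen 0.16, so the place of heart depends on the scaling. SAMD8 (r = 0.958), USP25 (0.954) and the smooth-muscle kinase gene PRKG1 (0.954) followed QKI most closely. A sum of 8 smooth-muscle markers had medians of 3374 TPM in heart, 3125 in spleen, 1933 in lung, 253 in kidney and 92.2 in liver, and its part in the QKI level was not tested. Of these 8 genes, 1 stood at least 2-fold above each other organ in heart and 1 in spleen. The heart sum may therefore not stand for smooth muscle alone.

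QKI transcripts gave the largest organ shift in usage among the 9 genes. PB.35.24 (5278 nt) took 48.5 ± 3.49% of QKI TPM in spleen, 29.9 ± 7.15% in lung, 11.6 ± 4.45% in liver, 7.88 ± 3.90% in kidney and 0.951 ± 0.762% in heart (SD, n = 8 each). Spleen exceeded heart by 47.5 points (6.23 ± 0.30 on the log2 ratio, limma adjusted p = 2.30e-18). No full-length read of these libraries was assigned to PB.35.24. PB.35.25 (5241 nt, 35 full-length reads) was the reverse, with 37.7 ± 2.74% in heart and 6.23 ± 2.22% in spleen, a difference of 31.5 points (3.19 ± 0.16, adjusted p = 1.73e-17). PB.35.4 (4208 nt, 83 full-length reads) took 55.4 ± 2.30% in kidney, 48.1 ± 3.42% in liver, 37.8 ± 1.66% in heart, 28.5 ± 4.12% in spleen and 27.3 ± 2.21% in lung.

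Grouped by their coding tail after the last shared exon, QKI transcripts fall into those with a 92-nt, a 26-nt and a 44-nt tail. In mouse the QKI proteins differ in these tails, and the form with the longest tail, QKI-5, is nuclear. The tails were grouped after values were seen and carry no test. The 92-nt tail made up 68.9 ± 2.93% of QKI TPM in kidney, 57.5 ± 2.97% in liver, 45.9 ± 1.78% in heart, 36.2 ± 1.75% in lung and 35.9 ± 4.63% in spleen (SD, n = 8 each). The 26-nt tail made up 54.8% in spleen, 49.0% in lung, 39.6% in heart, 34.6% in liver and 26.9% in kidney, and the 44-nt tail 14.8% in lung, 14.5% in heart, 9.33% in spleen, 7.93% in liver and 4.27% in kidney. In short reads kidney and liver thus had the most of the 92-nt tail, and lung and spleen the most of the 26-nt tail. Full-length reads with the 92-nt tail were 30 of 33 in kidney (90.9%), 11 of 14 liver reads (78.6%), 19 of 29 lung reads (65.5%), 8 of 15 spleen reads (53.3%) and 15 of 44 heart reads (34.1%). Those with the 26-nt tail were 21 of 44 heart reads (47.7%), 5 of 15 spleen reads (33.3%), 3 of 14 liver reads (21.4%), 5 of 29 lung reads (17.2%) and 3 of 33 kidney reads (9.09%). Both kinds of read put kidney and liver first for the 92-nt tail, but the full-length reads put heart, and not lung or spleen, first for the 26-nt tail.

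The last shared exon itself has a long form of 300 nt at chr1:4745308-4745607 and a short form of 276 nt at chr1:4745308-4745583. The long form made up 91.7 ± 1.54% in spleen, 78.7 ± 7.97% in lung, 77.5 ± 3.93% in kidney, 73.2 ± 3.11% in liver and 43.6 ± 1.96% in heart (SD, n = 8 each). Heart was the organ in which the short form was in the majority, at 55.4%. Full-length reads numbered 16 long against 28 short in heart, 30 against 3 in kidney, 11 against 3 in liver, 22 against 7 in lung and 9 against 6 in spleen. The pair differs by a multiple of 3. In both kinds of read, heart was the 1 organ with more of the short form.

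**Figure D4:**
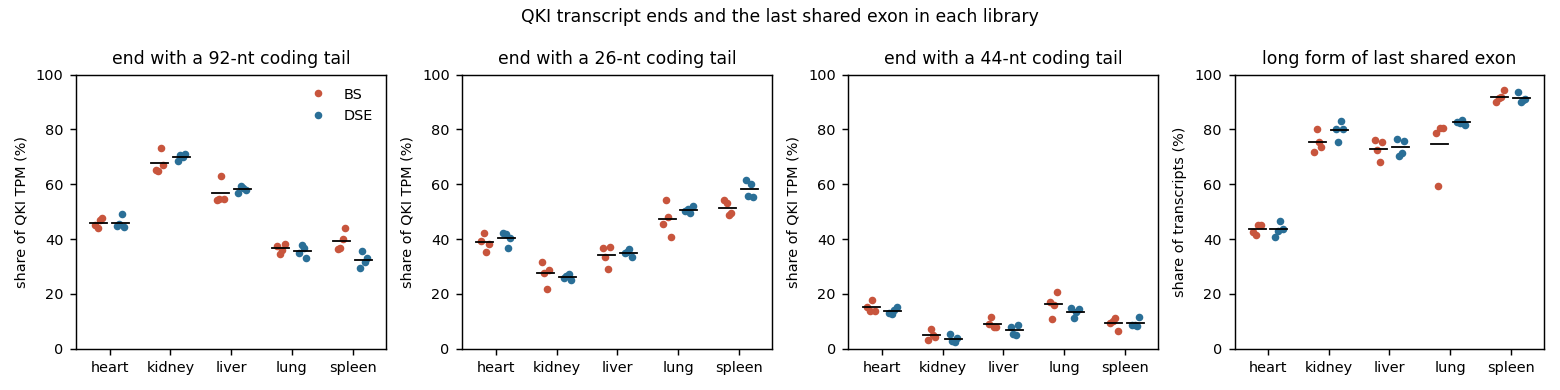
Share of QKI TPM in percent (vertical axes) in each short-read library by organ for transcripts with the 92-nt, 26-nt and 44-nt coding tails and for the long form of the last shared exon; red points on the left are BS, blue points on the right DSE, black lines group means (n = 4 each). The 92-nt tail is highest in kidney at a mean of 68.9%, and the long form is lowest in heart at 43.6%.

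Pig groups were set against each other as BS minus DSE. At an adjusted p under 0.05 and at least 2-fold, 0 of 45 gene and organ combinations passed (limma), where 4.16% of all such tests did, and 0 of 9 passed over the 5 organs together, where 1.38% of all genes did. At an unadjusted p under 0.05 there were 21 of 45 and 7 of 9 (limma). The shares of all genes at an unadjusted p are not given here, which also holds for such counts below. Without the minimum fold, 21 of the 45 passed, 19 of them lower in BS, where 32.0% of all such tests passed and 16.2% lower in BS. Over organs 6 of the 9 passed without it, 5 lower and 1 higher in BS, where 55.3% of all genes passed, 30.1% lower and 25.2% higher. The differences that passed were under 2-fold.

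QKI had the largest pig-group difference over organs. In lung it was 144, 114, 124 and 200 TPM in BS pigs and 288, 207, 294 and 230 TPM in DSE pigs. In spleen it was 119, 161, 113 and 87.3 TPM in BS and 197, 187, 205 and 166 TPM in DSE. In heart it was 88.2, 83.0, 81.1 and 118 TPM in BS and 138, 129, 134 and 131 TPM in DSE. Every BS value was below every DSE value in all 5 organs, kidney (28.9 to 52.9 in BS, 55.3 to 66.6 in DSE) and liver (34.5 to 46.6 in BS, 51.8 to 61.4 in DSE) included. Over organs BS minus DSE was −0.59 ± 0.06 on the log2 scale (limma adjusted p = 6.25e-05), and within organs the differences ran from −0.46 in liver (0.0339) to −0.82 in lung (0.000348). BS lay wholly below DSE in 16.6% of all gene and organ sets at 1 TPM or more. Without a minimum fold, 30.7% of all genes were lower in BS lung and 8.90% in BS liver. The median BS minus DSE difference over all tested genes was −0.15 in lung, −0.05 in spleen and 0.02 in liver (log2). Differences in lung carry that shift.

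Some sums of cell-type markers also separated the pig groups, given here for these samples with no test. Such separation was common: of all single gene and organ sets at 1 TPM or more, BS lay wholly below DSE in 16.6% and wholly above in 16.9%. Many other marker sums overlapped. The sum of 10 leukocyte genes was higher in every BS library than in every DSE library in lung (2178 to 2763 TPM in BS, 1334 to 2133 in DSE), heart (148 to 209 in BS, 58.9 to 137 in DSE), kidney and liver. Smooth-muscle markers were likewise higher in BS in heart and liver, heart-muscle and endothelial markers in heart, kidney-tubule and general epithelial markers in kidney, and lung-epithelium markers in lung (56590 to 82213 TPM in BS, 37416 to 51645 in DSE). In heart the smooth-muscle sum may not stand for smooth muscle alone, as said above for QKI. Hepatocyte markers were lower in every BS liver, at 59291 to 78290 TPM, than in every DSE liver, at 78496 to 117382. The mitochondrial share of TPM was lower in every BS heart, at 33.9 to 36.1%, than in every DSE heart, at 38.3 to 46.0%. The part of these values in the pig-group differences was not tested.

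MBNL1 and MBNL2 were also lower in BS in kidney, liver, lung and spleen, without a minimum fold. In heart neither difference passed, at −0.11 for MBNL1 (log2, limma adjusted p = 0.540) and −0.20 for MBNL2 (0.437). MBNL1 was 122, 106, 113 and 136 TPM in BS lungs and 195, 156, 172 and 167 TPM in DSE lungs, and 139, 161, 137 and 144 TPM in BS spleens and 179, 211, 181 and 176 TPM in DSE spleens, with no overlap in either. Over organs MBNL2 was −0.47 ± 0.07 (adjusted p = 0.000357), MBNL1 −0.36 ± 0.05 (0.000229), RBM39 −0.33 ± 0.09 (0.0110) and ESRP1 −0.21 ± 0.07 (0.0203), all log2 with limma. The ESRP1 value did not pass when the replicate number was used as a block (limma adjusted p = 0.0657). That number pairs no BS sample with a DSE sample, as described below. RBFOX2 at −0.20 (0.0537), RBM20 at −0.07 (0.391) and ESRP2 at 0.07 (0.447) did not pass, although in lung RBFOX2 was 16.6, 16.9, 14.9 and 18.2 TPM in BS and 25.2, 26.5, 25.3 and 22.8 TPM in DSE.

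PTBP1 went the other way. It was 136, 136, 167 and 147 TPM in BS kidneys and 112, 120, 117 and 119 TPM in DSE kidneys, and 64.7, 52.9, 51.7 and 66.0 TPM in BS livers and 48.2, 44.1, 47.7 and 47.2 TPM in DSE livers, with no overlap in either organ. Over organs BS was 0.23 ± 0.06 higher (limma adjusted p = 0.00944). Of 36 gene and organ combinations at 1 TPM or more, BS lay wholly below DSE in 15 and wholly above in 2, where 16.6% and 16.9% of all such sets did. Those 2 were PTBP1 in kidney and liver. No gene showed a pig-group difference that varied between organs (0 of 9 by limma at an adjusted p under 0.05), where 8.40% of all genes did. At an unadjusted p under 0.05 there was 1, and ESRP1 came nearest at an adjusted p of 0.0755.

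**Figure D5:**
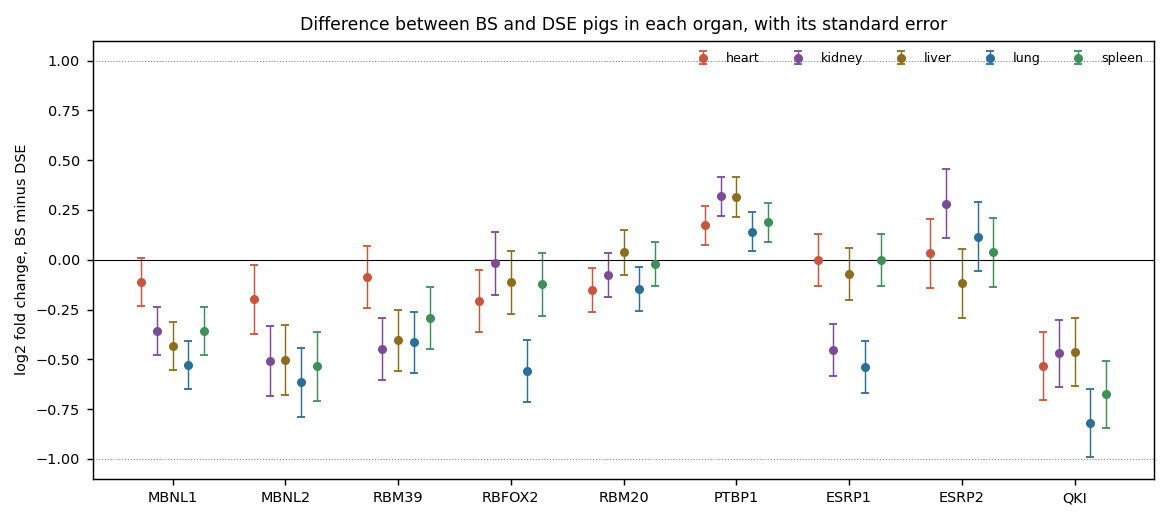
Difference in gene level, BS minus DSE, in log2(TPM + 1) ± SE (vertical axis) for each splicing regulator in each organ; points below 0 are lower in BS, and dotted lines mark a 2-fold difference. Every point lies within the 2-fold lines; QKI lies below 0 in all 5 organs, down to −0.82 in lung, and PTBP1 lies above 0.

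In splicing, 3 of 340 exon tests between the pig groups passed, where 2.28% of all such tests did, and all 3 were 1 exon of MBNL1. This 163-nt exon at chr13:92548345-92548507 shares its end with the 1002-nt exon and is a shorter alternative to it. It is held by 3 transcripts, whose coding region covers it in none, and skipped by 39. Its inclusion is a share of the transcripts that hold or skip it, which leaves out those with the 1002-nt exon. It therefore cannot be added to the share of the 1002-nt exon. In heart the transcripts counted averaged 17.0 TPM, against 39.8 TPM for all of MBNL1. Inclusion in heart was 47.2, 32.0, 39.8 and 57.5% in BS pigs and 4.08, 6.56, 0 and 2.56% in DSE pigs. In kidney it was 13.9, 22.9, 44.6 and 42.2% in BS and 2.56, 1.30, 4.46 and 3.75% in DSE, and in liver 31.2, 15.2, 35.6 and 16.6% in BS and 3.13, 0, 6.24 and 0% in DSE.

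All BS libraries were above all DSE libraries in each of the 5 organs. The share of all exons that separate the pig groups in this way is not given here, which also holds for the exons below. The difference was 40.8 points in heart (3.72 ± 0.52 on the log2 ratio, limma adjusted p = 8.08e-06), 27.9 points in kidney (6.34e-05) and 22.3 points in liver (0.000138). In lung it averaged 10.9 ± 5.44% in BS and 1.27 ± 0.709% in DSE, and in spleen 13.4 ± 4.14% and 0.598 ± 0.802% (SD, n = 4 each), shifts under the 20-point minimum. Without pig BS3 the liver call was lost and 2 exon tests passed. Without pig BS1, 5 passed, and without pig BS4, 13, the added ones being other MBNL1 and MBNL2 exons in lung and spleen. Leaving out the 3-exon transcript raised the heart values to 63.3% in BS and 9.45% in DSE, and heart, kidney and lung then passed. Full-length reads held it in 6 of 186 BS reads (3.23%, exact 95% interval 1.19 to 6.89) and 2 of 145 DSE reads (1.38%, 0.167 to 4.89), with overlapping intervals. In BS heart it was in 5 of 52 full-length reads (9.62%), against a short-read share of 44.1 ± 10.9%.

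No pig-group difference of the MBNL1 36-nt exon reached 20 points with an adjusted p under 0.05. In spleen BS was 17.5 points above DSE without overlap (limma adjusted p = 0.0580). Without the 3-exon transcript spleen averaged 75.6% in BS and 72.1% in DSE with overlap, and the full-length spleen reads held the exon in 90 of 115 in BS (78.3%) and 110 of 125 in DSE (88.0%). In lung BS was at 21.1, 9.59, 22.9 and 44.1% and DSE at 42.6, 35.7, 42.2 and 38.8%, a difference of −15.4 points (adjusted p = 0.0306). Without the 3-exon transcript lung averaged 41.3% in BS and 53.9% in DSE, and full-length lung reads held the exon in 61.7% in BS and 55.7% in DSE. The 3-exon transcript took its highest share, 73.1%, in the BS2 lung that had the lowest value. In transcript usage 0 of 185 pig-group tests passed, where 4.86% of all did, with 57 at an unadjusted p under 0.05 (limma). RBFOX2 in heart had the 40-nt exon at 37.8, 38.5, 52.4 and 38.4% in BS and 37.4, 34.2, 29.8 and 29.4% in DSE, which did not overlap and was not called.

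Other regulators give the setting for these genes. Of a list of 34 further tissue splicing regulators, 25 were tested and 6 stood at least 2-fold above each other organ, 24% where 25.3% of all genes did. These were RBFOX1 in heart (6.29 TPM), a paralogue of RBFOX2; RBM47 (51.9 TPM) and MSI2 (24.3 TPM) in kidney; MBNL3 (28.7 TPM) and A1CF (101.5 TPM), the cofactor of apolipoprotein B mRNA editing, in liver; and NOVA2 in lung (7.03 TPM). The third muscleblind gene, MBNL3, was thus highest in liver, the organ where MBNL2 was lowest. Between pig groups, 11 of the 25 were lower and 5 higher in BS without a minimum fold, where 30.1% of all genes were lower and 25.2% higher.

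Exons of textbook target genes of these regulators were tested in 17 of the 23 genes listed, since 6 had no testable exon. Of 161 exons tested, 48 passed in 1 or more organ pairs, where 6.78% of all exons did, and 15 of the 17 genes had such an exon, where 14.0% of all genes did. The list was chosen for splicing known to differ between tissues, so these shares are a description. ENAH and FLNA had none. The exons with the largest shifts, up to 97.2 points, are given here. An 18-nt exon of PDLIM5, a Z-disc protein, was kept at 98.8% in heart and 1.62% in kidney (limma adjusted p = 7.15e-22). A 79-nt exon of tropomyosin TPM1 was at 94.7% in heart and 0.321% in kidney, and a 42-nt exon of LMO7 at 83.0% in heart and 0.838% in kidney. PKM, whose mutually exclusive exons PTBP1 is known to choose between, kept its 167-nt exon at chr7:61029321-61029487 at 98.4% in kidney, 93.2% in lung, 88.5% in liver, 84.6% in spleen and 15% in heart. The 36-nt exon of the insulin receptor INSR, at chr2:71904820-71904855, was at 89.2% in liver, 87.5% in heart, 69.9% in kidney, 32.5% in lung and 9.80% in spleen. In the liver of pig BS4, with its 361.6 TPM of heart-muscle markers, the PDLIM5 exon stood at 34.3% and the TPM1 exon at 30.0%. TNNT2, also among the 15 genes, had its largest shift, 52.1 points, between heart and liver. Its liver mean rests on 4 livers, at 0% in BS2, 90.3% in BS3, 100% in BS4 and 0% in DSE3. Which regulator acts on which exon was not tested.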

How the data were processed

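Per the submitters' processing notes the reads were handled with STAR 2.7.10a and Salmon 1.10.1 on the pig build susScr11, with no role given for each tool. The authors deposited gene and transcript TPM for the short reads and a count of full-length PacBio reads per transcript model. Per the labels' protocols, Trizol and acid phenol were used to extract RNA, and only the short-read libraries had rRNA removed. TPM sums to 1000000 in each library and keeps no depth, so its counting error is unknown. Of full-length reads, 51.9% came from models kept in the assembly under their own ID, 35.9% were assigned to a gene by locus, 3.16% to several genes, which were left out, and 9.10% to none; 85.4 to 90.5% of reads per library lay on genes. A total of 20 gene columns, 20 transcript columns and 5 full-length read columns carry a code that matches no sample label and were not used.

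From these, gene levels were tested with limma 3.58.1 (trend) on log2(TPM + 1), in 1 model over 10 groups of organ and pig group, for the 16905 genes that averaged 1 TPM or above in any group. Transcript usage and exon inclusion were tested with limma on the log2 ratio of using to not using transcripts with 0.5 TPM added. Both were called at a shift of at least 20 points. Usage was tested for genes of at least 5 TPM on both sides and usage of at least 5% on either. Inclusion was tested where including and skipping transcripts together had at least 5 TPM on both sides, with no minimum share. Full-length counts were tested with edgeR 4.0.16 (quasi-likelihood, TMM, pig group as a term; 4110 genes), and DESeq2 1.42.0 was an alternative. All adjusted p-values are Benjamini-Hochberg over all genes and contrasts of a kind. The steps were tested on simulated data. R 4.3.3, Python 3.11.15, pandas 2.3.3, scipy 1.17.1 and matplotlib 3.10.9 were used.

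Up to 3 transcripts by usage and up to 3 by called shift, up to 3 called exons and the 3 most correlated genes were named for each regulator; other exons are marked as chosen after their values were seen. The regulators and gene lists were chosen with earlier results of these data known. The labels do not state that numbered samples are separate animals, so p-values measure the spread between these samples. Deviations of organs with the same animal code correlated at a median r of 0.14 (51 of 80 pairs over 0.1), against −0.05 for other pairs, while BS and DSE samples sharing a number did not (median −0.03, 1 of 20 pairs), so the number pairs no BS sample with a DSE sample.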

Additional observations from a re-analysis of the deposited data

Results flagged for a closer look

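In 8 of 88 sets of 4 libraries (1 gene, 1 organ and 1 pig group), a single library stood apart from the other 3 by Dixon's test at the 95% level, where chance gives about 1 set in 20. MBNL1 was at 211 TPM in the DSE2 spleen, with the others at 176 to 181. RBFOX2 was at 13.3 TPM in the BS3 liver, with the others at 8.04 to 8.54. RBM20 was at 22.7 TPM in the DSE3 heart, with the others at 17.8 to 18.5. ESRP2 was at 11.2 TPM in the DSE2 kidney, with the others at 7.31 to 7.92. QKI was at 61.4 TPM in the DSE2 liver, with the others at 51.8 to 52.7. ESRP1 was near 0 in the remaining 3 sets: 0.0429 TPM in the BS2 liver, with the others at 0.130 to 0.147, 0.0251 TPM in the BS3 spleen and 0.0302 TPM in the DSE3 spleen, with the others in both spleen sets listed at 0. Of these 8 libraries, 3 are from pig DSE2, in spleen, kidney and liver. The liver of pig BS4, with heart-muscle markers above those of the other livers, is in none of these sets.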

How the results depend on the processing

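Of the counts of calls, 105 of 120 values under an alternative stayed within 1.5 times the reported count. Without a minimum fold, 76 organ differences in gene level (50 with it), 21 pig-group differences within organs and 6 over organs (0 with it) passed. With a 10-point shift, 70 organ and 15 pig-group tests of usage (28 and 0 at 20 points) and 50 organ and 9 pig-group tests of inclusion (18 and 3) passed. A 1-TPM gene minimum gave 6 pig-group tests of inclusion. No shares over all genes, transcripts or exons are given here for these alternatives or those below, so the counts describe only how thresholds matter. The pig-group shares of gene levels without a minimum fold, given above, are the exception. Leaving out each animal gave 49 to 52, 27 to 29, 17 to 19, 0 to 3, 2 to 13 and 0 to 1 calls for organ levels, organ usage, organ inclusion, pig-group usage, pig-group inclusion and the interaction. Pig-group usage was 3 without BS1, 3 without BS3, 1 without BS4 and 1 without DSE3, and the interaction 1 without BS2. Without BS3, PB.3204.1 of PTBP1 was 27.0 points lower in BS in kidney, 27.4 in liver and 20.6 in spleen. Without BS1 it was 22.0 points lower in BS in lung. Full-length calls were 23 as reported, 20 with DESeq2 and 17 to 30 over all alternatives.

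With the replicate block, counts of calls did not change (50 organ calls with and without it), and the ESRP1 difference over organs had an adjusted p of 0.0657; it was 0.0515 with a pseudocount of 0.1 TPM and 0.0529 without DSE2. Reversed values were QKI heart minus lung at 0.42 after median-ratio scaling, RBFOX2 lung minus heart at −1.14 after that scaling, −0.55 without mitochondrial genes and from −0.0040 to 0.040 over left-out animals (below 0 without BS1, BS2 or DSE2), and RBM39 lung minus spleen at −0.14 after that scaling and from −0.047 to 0.14 over left-out animals (below 0 without BS4, DSE1 or DSE3). The MBNL1 kidney minus heart difference of 0.07 also turned round, with heart 0.82 above kidney after that scaling. The cause was not tested. Leaving out the 3-exon MBNL1 transcript, chosen after seeing the data, gave 24 organ calls of inclusion. The depth behind TPM is unknown, and long reads of RBFOX2, RBM20, ESRP1 and ESRP2 are too few for inclusion levels.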
